A study of Homo sapiens with 6 samples.

Results

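The interferon regulatory factors examined here were IRF1, IRF2, IRF3, IRF5 and IRF7, taken as the genes whose symbols match these names, which gave 5 of the 29845 genes with a row in the deposited counts. All 5 were among the 16555 genes kept by edgeR's filter on low counts. RNA was sequenced from A549, an established cell line from a human lung carcinoma, to ask how TFAM shapes the transcriptome. TFAM is a mitochondrial transcription factor that packages mitochondrial DNA. In 3 libraries (TFAM-OE) the cells carried a pIRES-hrGFP-1a plasmid with FLAG-tagged TFAM, and in the other 3 (control) the empty plasmid. Both groups had been transfected by lipid reagent, so the control cells had also received plasmid DNA. Transfection was transient, and the share of cells that took up plasmid is not stated in the sources used here.

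Interferon regulatory factors are transcription factors that share a DNA-binding domain reading GAAA-rich sequences, the interferon-stimulated response elements. IRF3 is made constantly, waits in the cytoplasm and is activated by phosphorylation after viral nucleic acid is sensed, while IRF7 is largely made in response to interferon and amplifies interferon production. IRF1 is an inducible activator, IRF2 competes with it on many promoters, and IRF5 is best known as an activator of inflammatory cytokine genes in leukocytes.

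The deposited counts summed to between 26650854 and 37321956 reads per library. TFAM itself gave 76.1, 70.2 and 72.7 TMM-scaled CPM (reads of the gene scaled to a common library size) in the control and 71.9, 77.2 and 83.0 in the libraries labelled TFAM-OE. The groups overlapped (log2 fold change 0.08, adjusted p 0.623, edgeR quasi-likelihood with Benjamini-Hochberg adjustment over all genes kept), so the TFAM reads did not bear out the label, and the group is called by its label throughout. No source used here says whether reads of the plasmid copy were counted on TFAM. The paper reports successful overexpression of the tagged protein by western blot against FLAG, which is not analysed here. Of 5 epithelial markers, KRT8, KRT18 and KRT19 exceeded 1 FPKM (fragments scaled to transcript length and library size) in every library, whereas EPCAM lay between 0.14 and 0.47 FPKM and CDH1 between 0.61 and 1.48. Of 5 leukocyte markers, 3 were listed and none exceeded 1 FPKM in every library. Their summed FPKM was 1.97 to 2.52 in the control and 0.95 to 1.4 in TFAM-OE, which moved with CD68 (1.37 to 1.65 against 0.44 to 0.77), and its part in the results below was not tested. Of 4 fibroblast markers, 3 were listed, with a summed FPKM of 0.64 to 0.71 in the control and 0.39 to 0.66 in TFAM-OE.

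Because IRF1 was down-regulated (values below), the stretches of its promoter that matched known regulatory motifs are shown. The RefSeq promoter table (GRCh38.p14) had entries for 2 of the 5 genes, IRF1 and IRF5. In both stretches the capitals mark the match, and they lie on the minus strand at chr5:132490879-132490907 and chr5:132490804-132490833.
IRF1, gamma-activated site: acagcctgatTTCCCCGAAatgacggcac
IRF1, NF-kappaB consensus: ggccagggctGGGGAATCCCgctaagtgtt
The gamma-activated site (TTCNNNGAA, searched on both strands) is bound by transcription factors that act downstream of interferon receptors. Its match began 124 bases before the start annotated in the RefSeq promoter table. The match to the NF-kappaB consensus began 50 bases before that start. In GENCODE 44 the IRF1 gene span is longer and reaches chr5:132508719, so both stretches lie inside it. Among all 35116 promoter windows, 7.66% held the first motif and 5.91% the second. The 4 windows of IRF5 held neither, nor the interferon-stimulated response element (GAAANNGAAA, both strands), which the IRF1 window also lacked. That element was found in 3.57% of all windows and in 3.01% of the 15309 windows of genes kept. Genes called lower at an adjusted p below 0.05 that also lost at least 0.5 of their level had it in 25.4% of 264 windows, which covered 191 of these 342 genes. In those windows the gamma-activated site and the NF-kappaB consensus were each found in 10.6%, beside 6.32% and 6.97% of the windows of genes kept. These are matches of letters and not measured binding.

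IRF7 fell most among the 5 genes, to 26.4% of its control level. It is encoded at chr11:612553-615983 on the minus strand (GRCh38, GENCODE 44). Its level was 119, 154 and 148 CPM in control replicates 1, 2 and 3, and 50.8, 35.7 and 24.3 CPM in TFAM-OE replicates 1, 2 and 3. The groups did not overlap, the lowest control library lying 2.35 times above the highest TFAM-OE library. The log2 fold change was -1.93 (SE 0.23, 95% interval -2.43 to -1.42), with an adjusted p of 0.00132 by edgeR's quasi-likelihood test. In such bulk RNA, fewer cells with the transcript and less of it in each cell cannot be told apart. Only 108 of the 16555 genes had a lower log2 fold change. The TFAM-OE libraries spread 2.09-fold among themselves, with a coefficient of variation of 36.0% where read counting alone would give about 2.87%. Of the neighbouring genes within 10 kb, PHRF1, on the opposite strand, had a log2 fold change of 0.01 (adjusted p 0.963, edgeR).

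IRF1 was also down-regulated, by a smaller amount. Its gene lies at chr5:132440440-132508719 on the minus strand. It gave 96.2, 102 and 98.1 CPM in control replicates 1, 2 and 3, and 77.9, 63.4 and 53.2 CPM in the TFAM-OE replicates. The control libraries sat within 1.06-fold of each other, and every TFAM-OE library lay below them. The log2 fold change was -0.61 (SE 0.13, 95% interval -0.90 to -0.31), with an adjusted p of 0.024 by edgeR's quasi-likelihood test. The call was lost when control replicate 1, 2 or 3 or TFAM-OE replicate 2 was left out (adjusted p 0.1, 0.116, 0.0541 and 0.116, edgeR), while the log2 fold change stayed between -0.62 and -0.58 in these fits. IRF1-AS1, an antisense transcript that shares 2805 exon bases with IRF1 in GENCODE 44, fell too, with 129, 133 and 126 reads in the control against 71, 46 and 42 (log2 fold change -1.32, adjusted p 0.0127, edgeR). The counts list IRF1 as ENSG00000125347.13 and GENCODE 44 lists it as ENSG00000125347.15. The span and overlap given here may therefore differ from those of the gene as counted. The other factors also have a later version in GENCODE 44 than in the counts. Neither the strand setting nor the annotation used in counting was stated in the sources used. How far reads of IRF1 and IRF1-AS1 were kept apart was not tested.

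IRF3 did not pass the test, although all 3 TFAM-OE libraries were above all 3 control libraries. The gene lies at chr19:49659569-49665875 on the minus strand. Its CPM was 85.3, 99.1 and 101 in the control and 129, 116 and 104 in TFAM-OE. The gap was narrow, since control replicate 3 stood next to TFAM-OE replicate 3. The log2 fold change was 0.29 (SE 0.11, 95% interval 0.04 to 0.54), with an adjusted p of 0.143 by edgeR's quasi-likelihood test. Without TFAM-OE replicate 3 the adjusted p was 0.0263 and the log2 fold change 0.37 (edgeR). BCL2L12, an apoptosis-related gene on the opposite strand, shares 734 exon bases with IRF3 and had a log2 fold change of 0.35 (adjusted p 0.109, edgeR), with no overlap between the groups.

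IRF2 and IRF5 did not pass the test either. IRF2, at chr4:184385702-184474558 on the minus strand, gave 25.0, 22.8 and 25.2 CPM in the control and 20.4, 18.5 and 22.6 in TFAM-OE. The groups were separated by 1.01-fold at their nearest libraries. Its log2 fold change was -0.25 (95% interval -0.51 to 0.02, adjusted p 0.221, edgeR). IRF5, at chr7:128937457-128950038 on the plus strand, gave 18.0, 23.1 and 16.9 CPM in the control and 21.1, 19.7 and 16.1 in TFAM-OE. Libraries of both groups interleaved. For IRF5 the log2 fold change was -0.03 (95% interval -0.37 to 0.32, adjusted p 0.937, edgeR), so changes beyond 1.29-fold down or 1.25-fold up lay outside its interval. Its sign turned without control replicate 2 (0.12) and without TFAM-OE replicate 3 (0.08).

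In counts, 2 of the 5 factors were down-regulated at an adjusted p below 0.05 (IRF1 and IRF7), where 4.81% of all genes kept were. None was up-regulated, where 3.48% of all genes kept were, and 0 by DESeq2, although 1 factor, IRF3, had an unadjusted p below 0.05 (0.0285, edgeR). Of the 5, IRF7 alone also fell to at most 0.5 of its control level, which 2.07% of genes did. Groups did not overlap for 3 factors with lower values (IRF1, IRF2 and IRF7) and 1 with higher values (IRF3), where 15.8% of all genes were separated in the lower direction and 15.8% in the higher direction.

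**Figure D1:**
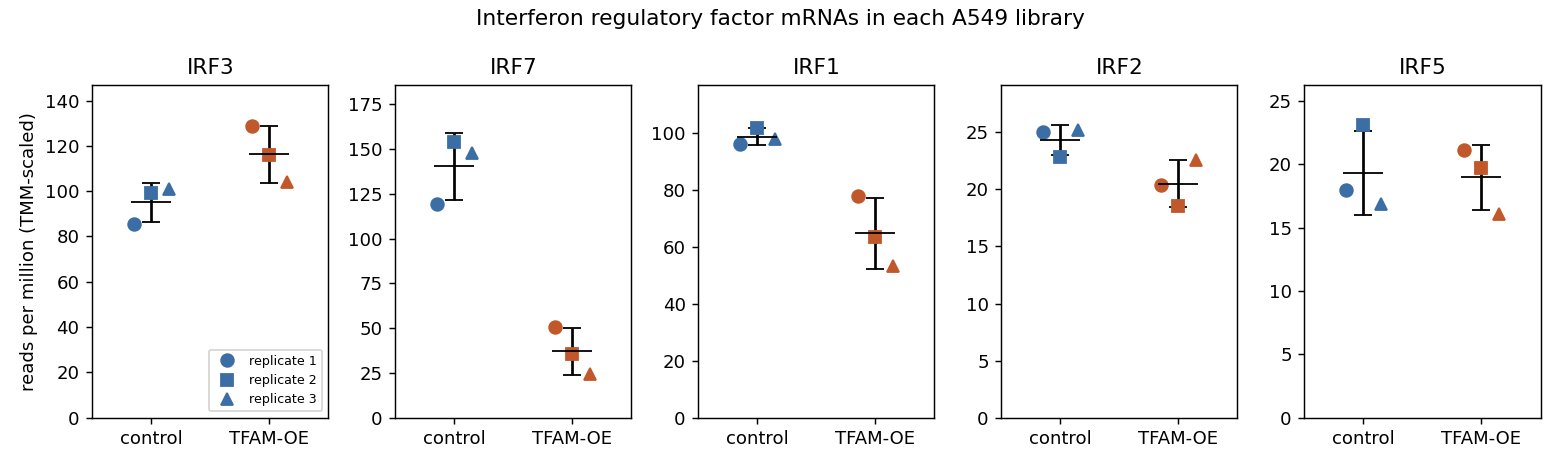
CPM after TMM scaling (y axis, from 0) of each factor in the control and TFAM-OE libraries. Each point is 1 library, the horizontal bar the mean and the whisker 1 SD (n = 3). IRF7 lies between 119 and 154 CPM in the control and between 24.3 and 50.8 in TFAM-OE, whereas the IRF5 groups overlap.

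Levels between genes were compared per length, in deposited FPKM. In the control, IRF7 was highest with 55.9 ± 6.19 FPKM (SD, n = 3), followed by IRF3 with 33.9 ± 2.24, IRF1 with 22.2 ± 0.623, IRF2 with 9.01 ± 0.591 and IRF5 with 5.31 ± 0.902. No neighbours in this order overlapped in their libraries. In TFAM-OE, IRF3 led with 40.7 ± 2.37 FPKM, while IRF7 (14.3 ± 4.49) and IRF1 (14.3 ± 2.01) could not be ordered, and IRF2 (7.5 ± 1.08) stood above IRF5 (5.1 ± 0.446). By mean FPKM, IRF7 ranked 1036th among all genes in the control and 3665th in TFAM-OE.

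The make-up of the factor mRNA therefore differed between the groups. IRF7 took 41.8%, 45.6% and 45.0% of the summed FPKM of the 5 genes in the control and 20.8%, 17.4% and 13.5% in TFAM-OE. IRF3 took 26.7%, 26.3% and 27.5% in the control and 47.4%, 50.3% and 51.8% in TFAM-OE. The share of IRF1 was 17.6% ± 1.2 (SD, n = 3) and 17.4% ± 0.634, as the total was lower too. The summed FPKM of the 5 genes was 126 ± 8.32 in the control and 81.9 ± 8.57 in TFAM-OE, whereas without IRF7 it was 70.5 ± 2.18 and 67.6 ± 4.13. These shares were not tested.

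**Figure D2:**
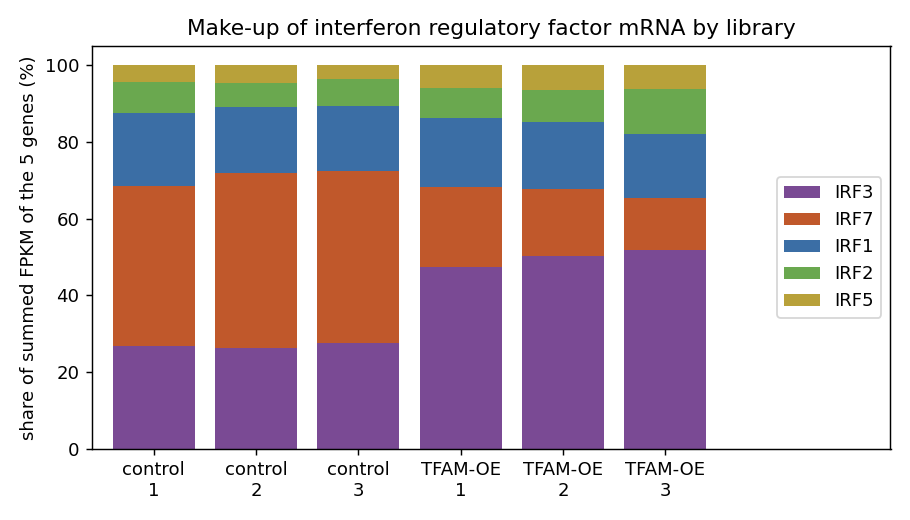
Share of each factor (y axis, percent) in the summed FPKM of the 5 genes, as stacked bars, 1 bar per library. IRF7 shrinks from between 41.8% and 45.6% in the control to between 13.5% and 20.8% in TFAM-OE, and IRF3 grows from at most 27.5% to at least 47.4%.

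Ratios within a library compare the factors with each other. IRF7 exceeded IRF3 by 1.56, 1.74 and 1.64 times in the control FPKM, and was 0.44, 0.345 and 0.262 of it in TFAM-OE. The mean log2 ratio moved from 0.72 ± 0.075 to -1.55 ± 0.38 (SD, n = 3), a 4.82-fold change, with an exact permutation p of 0.1 (two-sided, 0.15 adjusted over 3 ratios), the smallest that 3 against 3 libraries allow. The IRF1 to IRF2 ratio was 2.34, 2.72 and 2.37 in the control and 2.31, 2.09 and 1.43 in TFAM-OE. These groups nearly met, and the mean log2 ratio differed by -0.38 (exact permutation p 0.1, adjusted 0.15). Without TFAM-OE replicate 3 this difference was -0.17. The IRF5 to IRF3 ratio overlapped between the groups, with a difference of -0.31 in the mean log2 ratio (exact permutation p 0.2, adjusted 0.2).

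Of the 7 other IRF genes and IRF2-binding co-repressors, 5 were kept and 0 passed the test in either direction, by edgeR or DESeq2, with 1 (IRF2BP2) at an unadjusted p below 0.05. A library decided this count, as 1 gene was called higher without TFAM-OE replicate 1 and 1 lower without TFAM-OE replicate 3. Over all genes kept, the first of these fits called 739 higher and the second 1782 lower. By edgeR, 4.81% of all genes kept passed as lower and 3.48% as higher. The median log2 fold change of these 5 genes was -0.03. IRF2BP2, which represses transcription together with IRF2, had a log2 fold change of 0.33 (adjusted p 0.126, edgeR) with no overlap between the groups. IRF2BP1 (-0.03) and IRF2BPL (0.02) had log2 fold changes near 0. IRF8, a factor of myeloid and B cells, had 34 to 60 reads per library (log2 fold change -0.40, adjusted p 0.304, edgeR), and IRF4, a lymphoid factor, had 2 to 17 reads (-0.73, adjusted p 0.495, edgeR). IRF9 was counted with 0 to 5 reads.

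**Figure D3:**
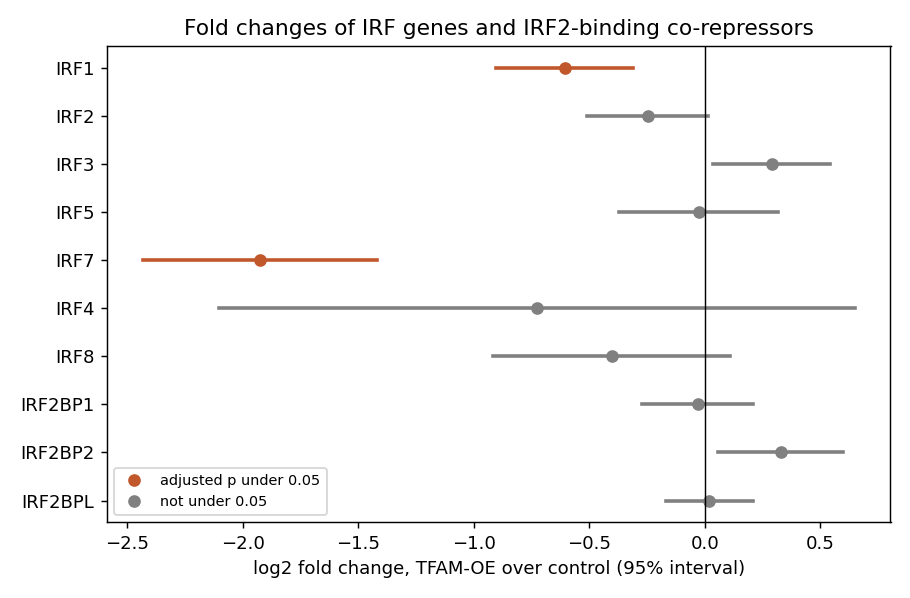
Log2 fold change, TFAM-OE over control (x axis), of the 5 factors, IRF4, IRF8 and the IRF2-binding co-repressors, with the 95% interval as a line. Coloured points have an adjusted p below 0.05. IRF7 (-1.93) and IRF1 (-0.61) lie below 0 with their intervals, and IRF4 has the widest interval.

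Among receptors and adaptors that signal to the factors, 3 RNA receptors (IFIH1, DDX58 and TLR3) were down-regulated. The order in which these genes and the factors changed was not tested. Of 11 receptors and adaptors, 7 were kept, and edgeR's quasi-likelihood test called 4 lower and 0 higher. It called 4.81% of all genes kept lower and 3.48% higher. The median log2 fold change of the list was -0.71 beside -0.008 for all genes kept. IFIH1, the cytosolic RNA sensor MDA5, fell from 1557, 1258 and 1643 control reads to 319, 368 and 297 TFAM-OE reads (log2 fold change -2.20, adjusted p 1.76e-05, edgeR). DDX58, the RNA sensor RIG-I, had a log2 fold change of -2.04, and TLR3, the endosomal receptor of double-stranded RNA, of -1.80. The fourth gene called was MYD88 (-0.71, adjusted p 0.0118, edgeR), an adaptor of Toll-like receptors named after its value was seen. The DNA receptor cGAS, listed as MB21D1 and named after its value was seen, did not pass (-0.24, adjusted p 0.239, edgeR). MAVS, the mitochondrial adaptor that relays signals of RIG-I and MDA5, had a log2 fold change of 0.40 (adjusted p 0.0609, edgeR). Its call depended on the test, as it was higher at an adjusted p of 0.0301 by DESeq2, 0.0222 by edgeR's exact test and 0.0117 with every gene of at least 1 read. It was also called higher without TFAM-OE replicate 1 (0.0161) or TFAM-OE replicate 3 (0.0435, edgeR). TMEM173, which encodes the DNA-sensing adaptor STING, had 4 to 8 reads per library and was not kept.

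Among the kinases and scaffolds that activate the factors, 2 of 10 passed as lower and 0 as higher, with a median log2 fold change of -0.12. Of all genes kept, 4.81% passed as lower and 3.48% as higher. TBK1, the kinase that phosphorylates IRF3 and IRF7, had a log2 fold change of -0.47 (adjusted p 0.0468, edgeR), and AZI2, a TBK1-binding scaffold, of -0.55 (0.017). The number of calls was 0 without control replicate 1, control replicate 2 or TFAM-OE replicate 2, and 1 without TFAM-OE replicate 1. Without TFAM-OE replicate 3, 2 were called lower and 2 higher (IKBKE and IRAK1). Lower calls over all genes kept numbered 253, 238 and 263 without control replicate 1, control replicate 2 and TFAM-OE replicate 2. With all libraries they numbered 796. They numbered 979 without TFAM-OE replicate 1 and 1782 without TFAM-OE replicate 3, where 1416 genes were called higher. IRAK1, a kinase of the Toll-like receptor pathway, had the highest level of those not called (log2 fold change 0.26, adjusted p 0.336, edgeR).

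Of 11 interferon receptor and JAK-STAT genes, 3 passed as lower and 0 as higher, with a median of -0.32. The shares over all genes kept were 4.81% lower and 3.48% higher. STAT2, a transcription factor of type I interferon signaling, had a log2 fold change of -1.02 (adjusted p 0.00552, edgeR), and SOCS1, a feedback inhibitor of JAK kinases, of -1.09. JAK1 had a value of 0.00 (adjusted p 0.994, edgeR). The number called lower was 2 without control replicate 1, 2 or 3 or TFAM-OE replicate 2, and 4 without TFAM-OE replicate 1. Without TFAM-OE replicate 3, 6 were called lower and 1 higher (TYK2). Over all genes kept, that fit called 1782 lower and 1416 higher, against 796 and 576 with all libraries. The fits with 2 lower calls in the list gave 238 to 714 over all genes kept. Without TFAM-OE replicate 1 there were 979.

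Of 11 proteins that bind, degrade or limit the factors, 2 passed as lower and 0 as higher, with a median of -0.09. Among all genes kept, 4.81% passed as lower and 3.48% as higher. TRIM21, a ubiquitin ligase that acts on several of the factors, had a log2 fold change of -0.99 (adjusted p 0.00236, edgeR), and MDM2, better known as the ligase of p53, of -1.11 (adjusted p 0.012). RBCK1, a subunit of the linear ubiquitin ligase complex, had a value of -0.10 (adjusted p 0.523, edgeR). The number of calls was 1 without control replicate 1, control replicate 2 or TFAM-OE replicate 2. Without TFAM-OE replicate 3, 3 were called lower and 2 higher (STUB1 and EIF4EBP1), and without TFAM-OE replicate 1 the median turned to 0.14. Over all genes kept, lower calls numbered 238 to 263 in the fits with 1 call in the list. Without TFAM-OE replicate 3, 1782 of all genes kept were called lower and 1416 higher.

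All 12 known targets of IRF3 and IRF7 on the list were down-regulated, where 4.81% of all genes kept were. Their median log2 fold change was -2.76. IFNB1, which encodes interferon beta, fell from 174, 121 and 132 control reads to 12, 5 and 5 TFAM-OE reads (log2 fold change -4.28, adjusted p 7.22e-05, edgeR). IFNL1, a type III interferon, had a log2 fold change of -3.87, and RSAD2, the antiviral enzyme viperin, of -3.78. Many of these genes also respond to interferon through STAT factors. The parts of IRF3, IRF7 and the STAT factors cannot be told apart from these levels.

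Of 17 known targets of IRF1, 16 were kept, 12 passed as lower and 0 as higher, with a median of -1.12. Over all genes kept, 4.81% passed as lower and 3.48% as higher. The parts of IRF1 and of other factors in these levels were not tested. BST2, the virus-tethering protein tetherin, had a log2 fold change of -3.36 (adjusted p 0.00014, edgeR), CMPK2, a mitochondrial nucleotide kinase, of -3.09, and IDO1, a tryptophan-degrading enzyme, of -2.43. Those not called numbered 4 and included CIITA, IL15 and VCAM1, named after their values were seen. SOCS1 is also on this list.

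Of the 2 known targets of IRF2, 0 passed the edgeR test, while DESeq2 called 1 lower and 1 higher, as did an unadjusted p below 0.05 in edgeR. Without TFAM-OE replicate 1 edgeR called 1 lower, and without TFAM-OE replicate 3 it called 1 higher. Over all genes kept, these fits called 979 lower and 1416 higher, in that order. GSDMD, the pore-forming protein of pyroptosis, had a log2 fold change of 0.49 (adjusted p 0.0836, edgeR) and CASP4, the caspase that cleaves it, of -0.64 (0.0673). Of 7 known targets of IRF5, 4 were kept and 2 passed as lower, CCL3 with a log2 fold change of -3.84 and IL6 with -1.19 (adjusted p 4.44e-05 and 0.00515, edgeR). Both are inflammatory signalling proteins, and the part of IRF5 in their levels was not tested. Beside these 2 lists, edgeR called 4.81% of all genes kept lower and 3.48% higher. IL12A, a cytokine subunit, had the highest level of those not called (-0.83, adjusted p 0.165, edgeR).

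Over these 8 lists of receptors, kinases, regulators and targets, edgeR called 0 genes higher, where it called 3.48% of all genes kept. DESeq2 called 3 higher and an unadjusted p below 0.05 in edgeR gave 6. In the lower direction DESeq2 called 40 and the unadjusted p in edgeR gave 45, with SOCS1 counted in each of its lists. Over all 16555 genes kept, DESeq2 called 932 higher and 1105 lower. The share of all genes kept at an unadjusted p below 0.05 is not given here. These list counts, the 0 included, were not tested against those over all genes.

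**Figure D4:**
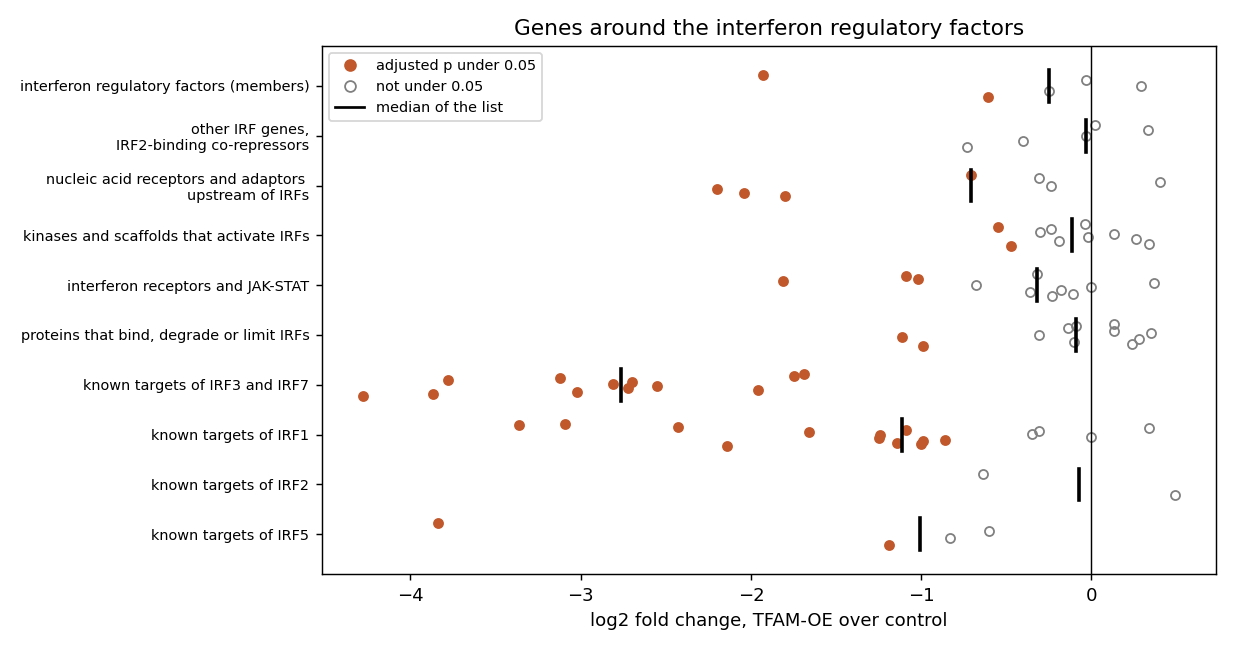
Log2 fold change, TFAM-OE over control (x axis), of the kept genes of each list (rows). Filled points have an adjusted p below 0.05 and the black bar is the median of the list. The targets of IRF3 and IRF7 all lie between -4.28 and -1.69, while the kinases and scaffolds lie between -0.55 and 0.34.

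The genes whose log2 CPM followed each factor most closely over the 6 libraries are given as a description, since these libraries share the difference between the groups and many genes reach a high r in 6 points. For IRF7 they were PDGFRL (Pearson r 0.9997), TRIM21 (0.9993) and PARP12 (0.998). For IRF1 they were PSME2 (0.9968), CEBPB (0.9961) and RPL13AP20 (0.996). For IRF3 they were RP11-513I15.6, IMPDH1 and TECR, with r from 0.9978 to 0.9994, for IRF2 they included PDE4B (0.9908) and THAP6 (0.9818), and for IRF5 they were KIAA1755, TEX22 and SRPX, from 0.9777 to 0.995.

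IRF7 was past the threshold under every alternative setting tried, with log2 fold changes between -2.22 and -1.69 and adjusted p up to 0.0148 (17 fits with edgeR, DESeq2 or limma). IRF1 was past it in 12 of its 17 fits.

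**Figure D5:**
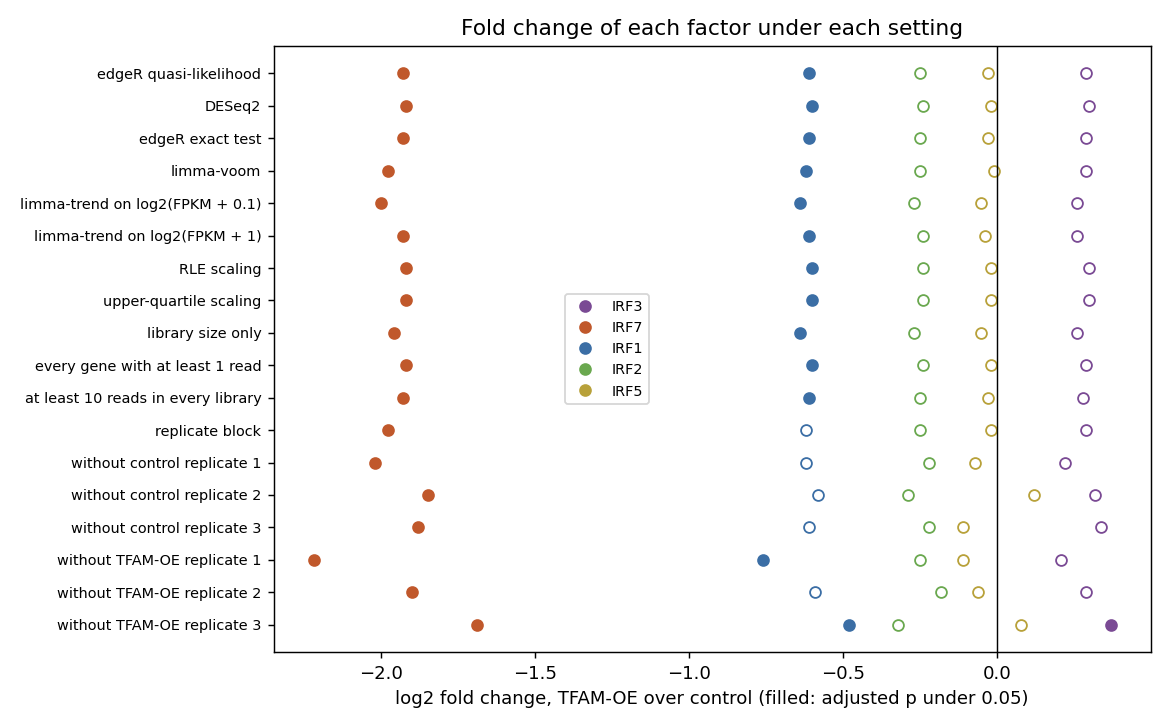
Log2 fold change, TFAM-OE over control (x axis), of each factor under each test, scaling, filter and left-out library (rows). Filled points have an adjusted p below 0.05. IRF7 is filled throughout, between -2.22 and -1.69, and IRF1 is open in 5 of the rows below the first.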

How the data were processed

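Polyadenylated RNA of 6 A549 cultures was sequenced. Per the paper's methods and the submitters' processing notes, the authors aligned trimmed reads to GRCh38 with TopHat2 and deposited raw counts of uniquely mapped reads per gene and FPKM values. No source used here names the counting program, annotation or strand setting. Libraries were grouped by label, with no pairing. Counts of the 16555 genes kept by filterByExpr were TMM-scaled and tested two-sided with edgeR's (4.0.16) quasi-likelihood test in R (4.3.3), with Benjamini-Hochberg adjustment. Alternatives used DESeq2 (1.42.0) and limma (3.58.1). Ratios of deposited FPKM used scipy (1.17.1). On simulated counts (16555 genes, 200 changed), 80% of 2-fold and 37% of 1.5-fold changes were recovered and 7.14% of calls were false. The simulated spread was assumed, not fitted, and alike in all libraries, so these rates need not hold for the real libraries. Intervals reflect the spread between 3 cultures, moderated by that of other genes (prior degrees of freedom 5.98, median total 9.98). Reads carry no molecular identifiers.

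The members, lists and tests were chosen with earlier results of these data known. Named were all members, TFAM, the other IRF genes and, from each other list, the 3 largest changes past an adjusted p of 0.05 and the most abundant gene not past it. Annotated neighbours within 10 kb and the 3 genes most like each member were also covered. Some genes that this rule covers are left out of the text. Unused value columns numbered 0.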

Additional observations from a re-analysis of the deposited data

How the results depend on the processing

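IRF7 kept its direction and call in all 17 alternatives, and IRF2 its direction and lack of a call. IRF1 lost its call in 4 fits that left out a library (log2 fold change over all left-out fits -0.76 to -0.48). IRF3 gained a call only without TFAM-OE replicate 3 (over all left-out fits 0.21 to 0.37). IRF5 turned in sign without control replicate 2 (0.12) and TFAM-OE replicate 3 (0.08), from a lowest value of -0.11. The 3 ratios kept their direction and moved by less than the larger of the 2 groups' SDs, though by more than the smaller, with IRF1 to IRF2 between -0.52 and -0.17 over left-out libraries. The causes were not tested.

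Replicate numbers did not pair the libraries, since the deviations of same-numbered libraries correlated at -0.225, 0.008 and -0.266. With the replicate block, IRF1 had a log2 fold change of -0.62 and an adjusted p of 0.0852 (edgeR), 1 member was called lower, and 285 genes were called lower and 74 higher, against 796 and 576 without it.

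Over left-out libraries the genes called lower numbered 238 (without control replicate 2) to 1782 (without TFAM-OE replicate 3) and those called higher 67 to 1416, with 253 and 93 without control replicate 1 and 263 and 87 without TFAM-OE replicate 2. Members called lower numbered 1 to 2 and higher 0 to 1. Genes called lower were 1236 with edgeR's exact test and 1485 with every gene of at least 1 read, and genes called higher 980 and 1034, with 932 by DESeq2. A fold change of 2 in addition left 342 lower and 74 higher, with 1 member lower. Among 10 kinases and scaffolds, 1 was called lower with library size only or on FPKM and 0 with the block. Among 11 JAK-STAT genes, 5 were called by DESeq2, 6 by edgeR's exact test and 1 with the block.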

Other observations

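IRF9, a DNA-binding subunit of the complex activated by type I interferon, was counted with 0 to 5 reads per library. ENSG00000259529, an annotated protein-coding gene on the same strand of chromosome 14 that shares 1544 exon bases with IRF9 in GENCODE 44, took 3141, 2615 and 3772 control reads and 2412, 2087 and 1372 TFAM-OE reads. All 3 TFAM-OE libraries were below the control libraries (log2 fold change -0.72, SE 0.16, adjusted p 0.0258, edgeR). It was chosen after its values were seen. Whether these reads come from IRF9 was not tested, and the low count of IRF9 cannot be read as its level. REC8, a meiotic cohesin gene within 10 kb of IRF9, also fell (log2 fold change -1.19, adjusted p 0.00624, edgeR).

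IRF2-DT, a divergent transcript beginning beside IRF2 on the opposite strand, took 56, 61 and 55 control reads and 25, 46 and 23 TFAM-OE reads (log2 fold change -0.92, adjusted p 0.067, edgeR). SCAF1 and PRMT1 near IRF3 and TNPO3 near IRF5 did not pass the test, at -0.24, 0.17 and 0.00 on the log2 scale (adjusted p 0.198, 0.52 and 0.996, edgeR).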
